A study of Mus musculus with 2756 samples.

Results

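The Nuclear factor I (NFI) family consists of the 4 genes Nfia, Nfib, Nfix and Nfic. They were chosen by name, not by their values, and all 4 were present among the 16441 genes of the count table. NFI proteins are transcription factors that bind DNA as homodimers or heterodimers. They recognise a palindrome made of a TTGGC half-site, a short spacer and the reverse complement of that half-site, and can also bind a single half-site more weakly. In the developing cortex, Nfia, Nfib and Nfix are known to promote the differentiation of progenitors into neurons and later into glia, and mice that lack any of them have delayed gliogenesis and malformed forebrain commissures. Nfic is best known for its role in tooth root formation.

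The genes were measured in 2756 single cells of the embryonic mouse neocortex, taken from the region expected to become the primary somatosensory area. Cells were labelled by injection of FlashTag, a fluorescent dye taken up by cells in mitosis along the ventricle, and the brightest 5% of labelled cells were sorted. Injections were made on 4 embryonic days, E12, E13, E14 and E15, and cells were collected 1, 24 or 96 h later, which gives 12 groups of 1 injection day and 1 collection time. All groups carried the same label, and day and time are the only differences the sample labels name, with no strain, genotype or animal. Each cell carries the name of 1 of 15 author clusters. The first part of each name was read as a class, where AP stands for apical progenitors, BP for basal progenitors, N1d and N4d for neurons mostly found 24 and 96 h after injection, IN for interneurons and Astro for astrocytes.

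No animal is named, so the reads of all cells of a group were summed and each sum was used as 1 sample. The p-values therefore measure only the spread between these sums, which may be partly technical. A cell had a median of 328910 reads (13191 to 1312820). Sums called lineage sums leave out IN and Astro cells, and the smallest held 46107467 and the largest 98041363 reads. The sample titles also carry 6 run codes whose meaning is not stated. Each code holds cells of 1 collection time, so differences between run codes and between times cannot be told apart. At 24 h and at 96 h, E12 shares a code with E13 and E14 shares one with E15, while at 1 h E12 goes with E14 and E13 with E15. The markers of basal progenitors, young neurons, maturing neurons, interneurons and astrocytes each had their highest summed level in the class of that name. The apical progenitor markers were at 3202 CPM in AP (CPM are counts scaled to the library total) and at 6278 CPM in Astro. Markers of microglia, endothelium, pericytes and meninges summed to at most 14.2 CPM in any lineage sum. Some listed markers were missing from the count table: endothelium rests on 1 of 3, and no blood marker was present. The Cajal-Retzius markers, 3 of 5 present, reached 34.03 CPM in the lineage sum of E13 at 24 h. In Astro cells, pericyte markers were at 169.9 CPM and oligodendrocyte precursor markers at 142.8 CPM. The 6 interneuron markers summed to 80.5 to 207.5 CPM in the 96 h lineage sums and to 3.00 to 7.86 CPM at 24 h, and their part in the results below was not tested.

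The 4 genes lie on 3 chromosomes (mouse build GRCm38, GENCODE vM21). Nfia (ENSMUSG00000028565.18) spans chr4:97772734-98118874 on the plus strand and Nfib (ENSMUSG00000008575.17) spans chr4:82290173-82705750 on the minus strand. Nfix (ENSMUSG00000001911.16) spans chr8:84699876-84800344 and Nfic (ENSMUSG00000055053.18) spans chr10:81396186-81455635, both on the minus strand. Their merged exons cover 10.9 kb for Nfia, 15.0 kb for Nfib, 7.35 kb for Nfix and 6.63 kb for Nfic, so levels are compared between the genes only per kb of exon. No run of 70 bases, the mapped read length, was shared between the transcripts of any pair of members, which had 0 such runs in all 6 pairs. Whether strand was used in counting is not given in the sources used here. Nfix shares a short exonic stretch with G430095P16Rik on the other strand, Nfic shares 72 bases with Gm16104 and Nfia shares 4 bases with E130114P18Rik, so reads from these stretches cannot be assigned to a strand.

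The NFI half-site, TTGGC read on either strand, was looked for in the 250 bases before the transcription starts that RefSeq gives on GRCm38.p6. It is a common word, present in 41.5% of 32851 such windows, while the full palindrome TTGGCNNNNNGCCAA was present in 12 of them (0.0365%). Windows were at hand for 3 of the 4 members, with 6 starts in all, and 2 of these windows held the half-site, both before starts of Nfix. None held the full palindrome. The 2 Nfix windows are shown since they are the members' windows with an NFI word in them. Each half-site is in capitals, and the sequences run 5′ to 3′ along the gene. Both windows precede internal starts and lie inside the annotated span of Nfix (chr8:84699876-84800344), not upstream of the whole gene. The first (chr8:84775829-84776078, minus strand) precedes start 2 of Nfix, and the other (chr8:84772876-84773125, minus strand) has the reverse complement in the last 5 bases before start 4.
Nfix, start 2: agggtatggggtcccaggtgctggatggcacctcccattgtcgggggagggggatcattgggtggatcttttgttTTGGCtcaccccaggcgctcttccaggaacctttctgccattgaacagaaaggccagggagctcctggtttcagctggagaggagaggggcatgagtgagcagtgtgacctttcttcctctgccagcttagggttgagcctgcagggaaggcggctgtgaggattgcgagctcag
Nfix, start 4: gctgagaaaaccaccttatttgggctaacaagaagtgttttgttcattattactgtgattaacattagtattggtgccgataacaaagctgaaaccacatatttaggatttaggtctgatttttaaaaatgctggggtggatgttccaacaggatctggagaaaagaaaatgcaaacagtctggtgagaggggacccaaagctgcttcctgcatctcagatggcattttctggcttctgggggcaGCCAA

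Per kb of exon, Nfib had the highest mean level of the members at each time. At 24 h it was at 232.97 ± 43.6 CPM per kb (SD, n = 4 lineage sums), against 83.1 ± 18.3 for Nfix, 63.999 ± 15.3 for Nfia and 2.61 ± 0.82 for Nfic. At 1 h Nfib was at 96.3 ± 17.4, Nfix at 36.5 ± 14.2, Nfia at 35.1 ± 5.87 and Nfic at 3.62 ± 1.85 CPM per kb. At 96 h Nfib was at 119.4 ± 30.7 and Nfix at 102.8 ± 31.1, which overlapped, while Nfia was at 21.6 ± 5.38 and Nfic at 3.44 ± 2.09 CPM per kb.

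Nfia, Nfib and Nfix rose from 1 to 24 h after injection. Nfia and Nfib then fell by 96 h, while the later step of Nfix did not pass the test. Fits were made with edgeR's quasi-likelihood test over 10210 genes, with Benjamini-Hochberg adjusted p-values and a threshold of 0.05. From 1 to 24 h, 19.2% of all genes tested passed (11.4% higher, 7.76% lower), and of the members 3 of 4 passed, all higher.

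Nfia, whose product acts early in the switch from neurogenesis to gliogenesis, was at 308, 352, 442 and 429 CPM at 1 h in the order E12, E13, E14, E15. It was at 826, 856, 558 and 549 CPM at 24 h, and at 320.1, 224.01, 189.1 and 206.02 CPM at 96 h. The 24 h sums all lay above the 1 h sums and above the 96 h sums, while the 1 h and 96 h sums overlapped at 1 value, that of E12 at 96 h. Nfia rose by 0.81 ± 0.19 (log2 fold change ± SE, edgeR adjusted p = 0.0103, 4 sums a time). It fell by 1.52 ± 0.19 from 24 to 96 h (edgeR adjusted p = 0.00018), where 24.2% of all genes passed. Taking each run code as a sample instead, the first change was 0.85 with an edgeR adjusted p of 0.0652.

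Nfib, which is required for the formation of the corpus callosum, was at 1212, 1395, 1343 and 1814 CPM at 1 h. It was at 3153, 4404, 3463 and 2918 CPM at 24 h and at 2228, 1796, 1152 and 1969.9 CPM at 96 h. Again every 24 h sum was above every sum of the other times, while the 1 h and 96 h sums overlapped. The rise was 1.25 ± 0.20 (edgeR adjusted p = 0.000828) and the fall to 96 h was -0.92 ± 0.20 (edgeR adjusted p = 0.00497).

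Nfix, which controls the timing of intermediate progenitor production, was at 153.996, 236.1, 279.3 and 403 CPM at 1 h, 419, 619, 697 and 709 CPM at 24 h, and 702, 1087, 566 and 667 CPM at 96 h. All sums of the later times were above all 1 h sums, and the 24 and 96 h sums overlapped. It rose by 1.20 ± 0.25 from 1 to 24 h (edgeR adjusted p = 0.0049), and the step from 24 to 96 h was 0.41 ± 0.25 (edgeR adjusted p = 0.245). Nfic was at 10.3 to 41.0 CPM over the 12 sums, its 3 times overlapped, and neither step passed the test (-0.54 ± 0.45 and 0.46 ± 0.45, edgeR adjusted p = 0.45 and 0.486).

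**Figure D1:**
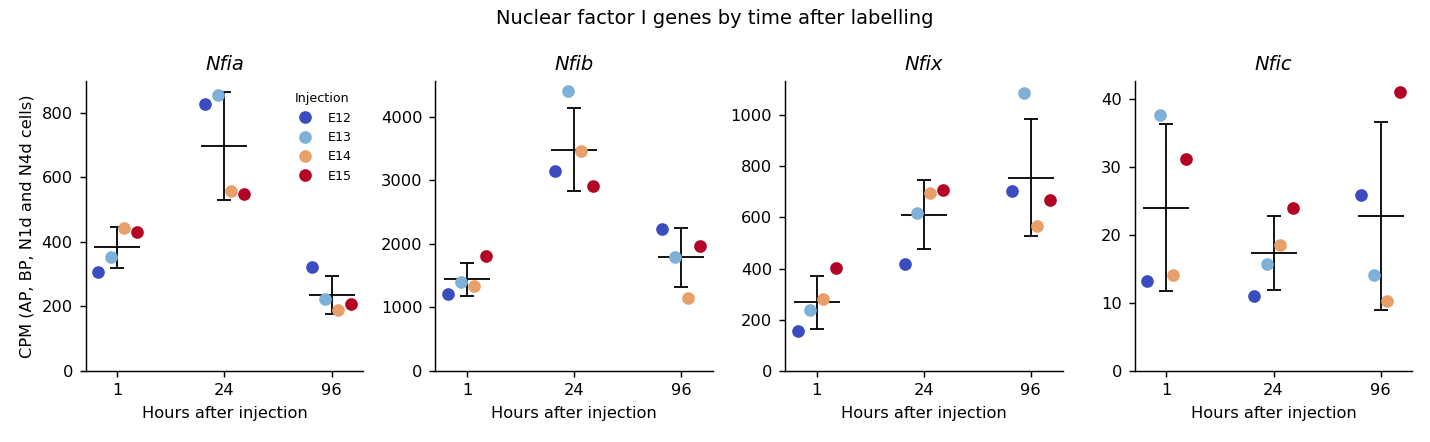
CPM of each Nuclear factor I gene in the 12 lineage sums (vertical axis, from 0) by hours after injection (horizontal axis). Each point is 1 injection day, the long bar is the mean and the whiskers are 1 SD over the 4 days. Nfia and Nfib peak at 24 h, Nfix is above its 1 h values at both later times, and Nfic shows no separation between times.

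Set directly against 1 h, the 96 h sums differed for 2 members, in opposite directions. This contrast was added after the values had been seen, and 42.5% of all genes passed it. Nfia fell by 0.71 ± 0.19 (edgeR adjusted p = 0.00855) and Nfix was 1.61 ± 0.25 higher, about 3.06-fold (edgeR adjusted p = 0.00023). Nfib (0.33 ± 0.20, adjusted p = 0.187) and Nfic (-0.07 ± 0.45, adjusted p = 0.914) did not pass. Nfib passed without the E14 sum at 96 h, which was its lowest at that time (0.51, edgeR adjusted p = 0.0286). Taking run codes as samples, the Nfia change was -0.66 with an edgeR adjusted p of 0.0781.

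Lineage sums mix progenitors and neurons, so within them a shift in the share of each class cannot be told apart from a change within cells. Levels by class at 24 h are given as a description with no test, since the clusters were made from the genes of these cells. In N1d cells, Nfia was at 997, 972, 609 and 595 CPM from E12 to E15, against 528, 527, 414 and 463 CPM in the AP cells collected at the same time. The ratio was 1.29 to 1.89 and above 1 on all 4 days. Nfib was at 4019, 5218, 4237 and 4036 CPM in N1d cells and at 1827, 2019, 1365 and 1561 CPM in AP cells, 2.20 to 3.10 times as high on the 4 days. Nfix was 1.51 to 4.01 times as high in N1d as in AP cells. Nfic in N1d cells was at 0.24 to 0.984 times the AP level over the 4 days. At E12 it was at 10.3 CPM in N1d cells and 10.4 CPM in AP cells, with overlapping counting intervals. Only 2 of the 14 AP cells of E12 held Nfic reads. At 24 h there were 14, 22, 32 and 44 AP cells from E12 to E15. BP cells, at E12, E13 and E15 of that time, had 1.13 to 1.27 times the AP level of Nfia and 1.18 to 3.04 times that of Nfix, and their Nfib was 0.964 to 1.56 times the AP level.

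Among progenitors, no member passed the test between 24 and 1 h. The fit on 8 AP sums called 1 of 9346 genes (0.0107%), and 852 genes had an unadjusted p below the threshold. DESeq2 called 2.15% of genes in the same comparison and 0 of the 4 members, with adjusted p from 0.411 to 0.99. The AP sums at 1 h held Nfia at 273.4, 332, 461 and 454 CPM and those at 24 h at 528, 527, 414 and 463 CPM, which overlap. The difference was 0.37 ± 0.20 (edgeR adjusted p = 0.626) at the same injection day. Nfib differed by 0.28 ± 0.18, Nfix by 0.39 ± 0.28 and Nfic by 0.01 ± 0.62 (edgeR adjusted p from 0.69 to 0.998). The same fit also gave a difference at the same embryonic age on the day of collection. It is the time term less 1 day of a day slope shared by both times, and not a pairing of sums. The differences were 0.30 for Nfia, 0.25 for Nfib, -0.04 for Nfix and -0.19 for Nfic, again with none past the threshold.

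In the author clusters, each member had its own order of levels, given here for sums of at least 10 cells. Nfia was at 575 to 1160 CPM in the N1d clusters at 24 h and at 747 CPM in Astro cells (54 cells of E15 at 96 h, a single sum). It was at 369 to 729 CPM in BP clusters, 270.3 to 714 CPM in AP clusters and 93.1 to 294.7 CPM in N4d clusters other than N4d.early1. That small cluster, present at E12, was at 565 CPM. IN clusters had 88.4 to 276.5 CPM. The N1d, BP and AP ranges overlapped, as did those of AP, N4d and IN.

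Nfib was at 3990.4 to 6262 CPM in the N1d clusters at 24 h, and at 3852 CPM in N4d.early1. It was at 867 to 2893 CPM in the other N4d clusters, 1066 to 2330.0 CPM in AP clusters, 1319 to 3465 CPM in BP clusters and 563 to 3098 CPM in IN clusters, ranges that all overlapped. Astro cells had 1389 CPM. The N1d class of E15 had 2713 CPM at 1 h (10 cells) and 3542 CPM at 96 h (11 cells). Nfix was at 482 to 1083 CPM in N1d clusters at 24 h and at 539 to 1163 CPM in N4d clusters. BP clusters had 333 to 584 CPM, AP clusters 146.9 to 433 CPM, IN clusters 132.4 to 673 CPM and Astro cells 228.4 CPM. The BP and IN ranges reached above the low ends of N1d and N4d, while every AP sum and the Astro sum lay below them. Small neuron sums of E15 at other times lay lower. As a class, N1d cells had 54.3 CPM at 1 h (10 cells) and 469 CPM at 96 h (11 cells). N4d cells of 1 h (13 cells) had 407 CPM. Nfic was at 0.240 to 87.97 CPM over all clusters. Its highest value came from the 18 N1d.early cells of E14, and its ranges in AP, BP, N1d, N4d and IN clusters overlapped.

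**Figure D2:**
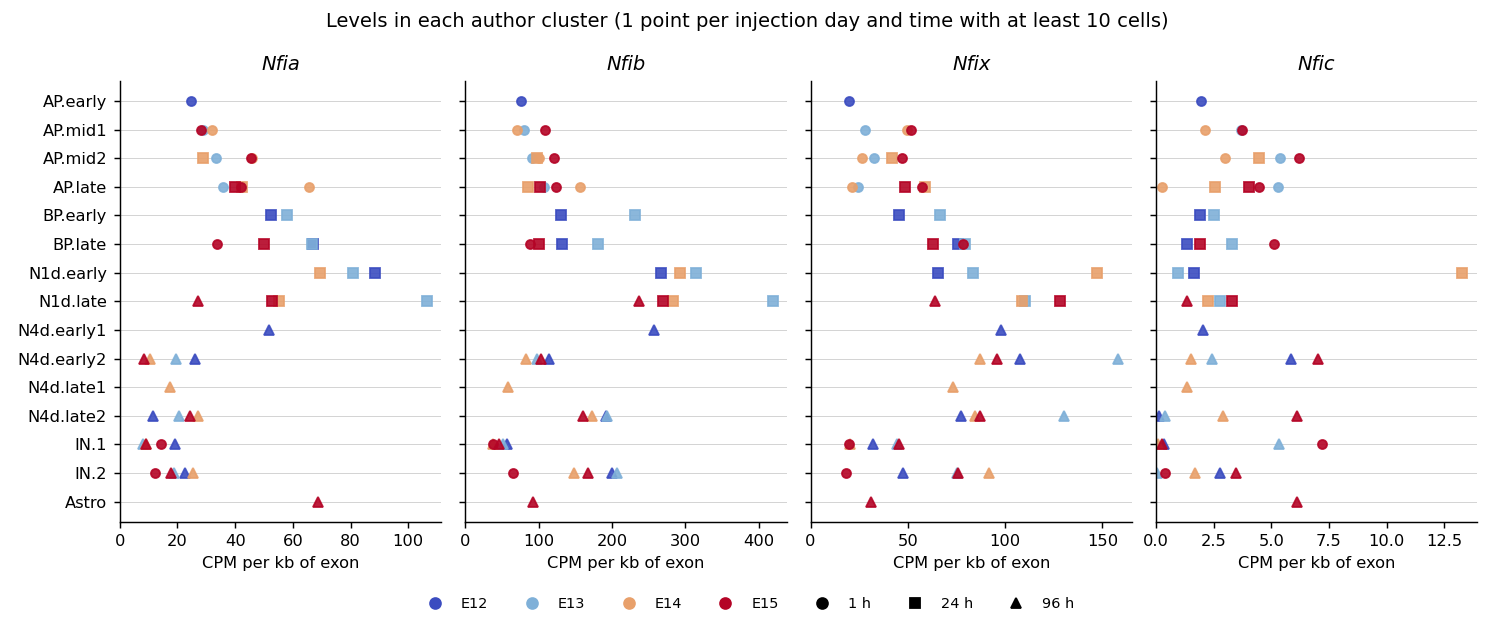
Level of each Nuclear factor I gene in CPM per kb of exon (horizontal axis, its own range for each gene) in the 15 author clusters (vertical axis). Each point is 1 injection day (colour) at 1 collection time (shape) with at least 10 cells. The N1d points of 24 h lie above all others for Nfib, while for Nfia they overlap those of BP, AP and Astro. For Nfix the N1d points of 24 h and the N4d points lie above those of AP and Astro and overlap those of BP and IN.

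At 96 h, clusters of 1 class could be compared on the same day. For Nfib, N4d.late2 cells had 2870, 2893, 2583 and 2393 CPM from E12 to E15, and N4d.early2 cells of the same days had 1710.3, 1456, 1232 and 1536 CPM. The ratio was 1.56 to 2.10, above 1 on all 4 days. Nfia went from higher in N4d.early2 to higher in N4d.late2 with injection day: N4d.late2 had 127.4, 223.8, 294.7 and 266.7 CPM, N4d.early2 had 283.9, 210.8, 114.9 and 93.1 CPM, and the ratio was 0.449 at E12, 1.06 at E13, 2.57 at E14 and 2.86 at E15. E12 and E13 share a run code here, as do E14 and E15, and the ratio was higher on the later day within each code. Nfix was lower in N4d.late2 than in N4d.early2 on all 4 days (569, 957, 621 and 641 CPM against 793, 1163, 641 and 706 CPM).

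The interneuron clusters also differed in Nfib. IN.2 cells had Nfib at 2992, 3098, 2208 and 2493 CPM and IN.1 cells at 845, 764, 569 and 691 CPM, a ratio of 3.54 to 4.05 on the 4 days. Nfia was 1.19 to 2.78 times and Nfix 1.49 to 4.50 times as high in IN.2. These sums held 11 to 61 cells each. Compared with N4d cells of the same day, the IN class as a whole had 0.363 to 0.718 times the Nfix level, while its Nfib was 0.655 to 1.23 times and its Nfia 0.61 to 1.07 times as high.

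**Figure D3:**
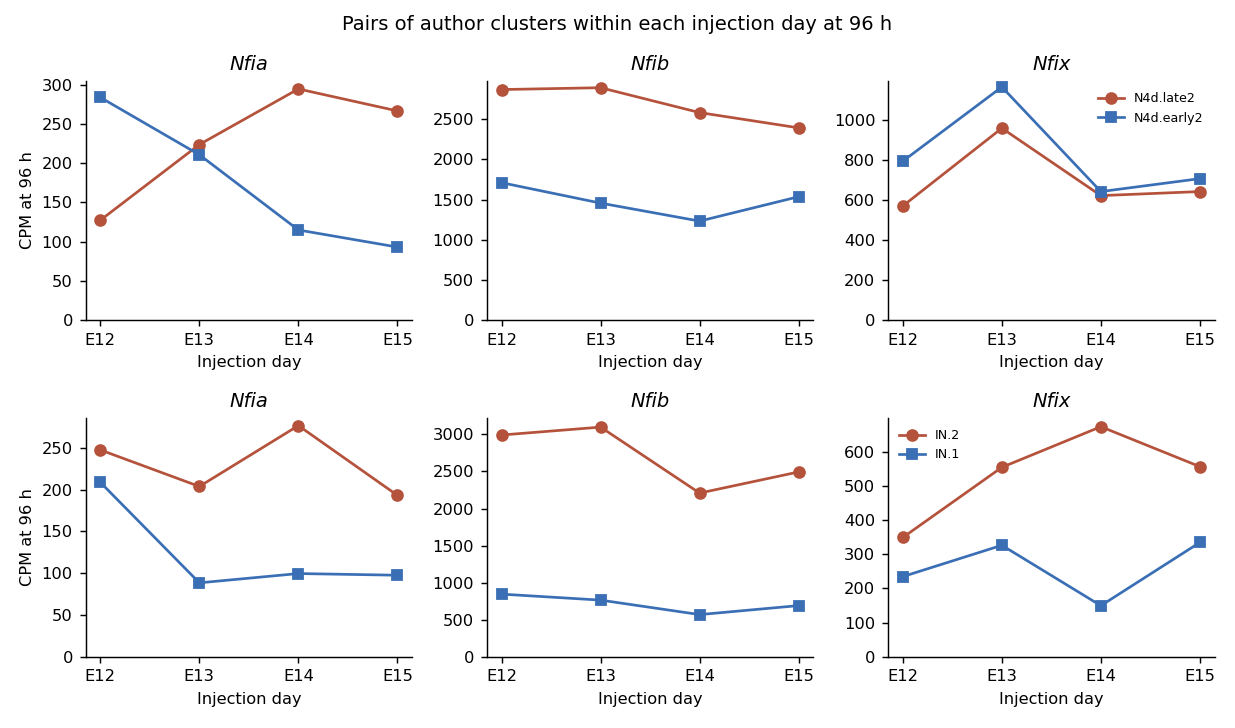
CPM at 96 h (vertical axis, from 0) by injection day (horizontal axis) of Nfia, Nfib and Nfix in N4d.late2 and N4d.early2 (upper row) and in IN.2 and IN.1 (lower row). Each point is the sum over the cells of 1 cluster on 1 day. Nfib is higher in N4d.late2 and in IN.2 on all 4 days, and the Nfia lines of the N4d clusters cross between E12 and E13.

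No member passed edgeR's threshold for a trend with injection day. Each class was given its own level and its own line over the 4 days in 1 fit on the 12 main-class sums, so that slopes are in log2 units per embryonic day. Few genes passed: 1.03% in the AP cells of 1 h, 0.383% in the N1d cells of 24 h and 0.049% in the N4d cells of 96 h. The mean of the 3 slopes passed for 1.01% of genes and the difference between slopes for 0.226%. At an unadjusted p below the threshold there were 1039, 1316 and 796 genes in the 3 classes.

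Nfix was at 144.9, 213.2, 278.3 and 393 CPM in the AP cells of 1 h and at 483, 678, 810.4 and 955 CPM in N1d cells at 24 h, higher on each later day in both classes. In N4d cells at 96 h it was at 729, 1108, 577 and 699 CPM, with no such order. The slope was 0.45 ± 0.12 per day in AP (edgeR adjusted p = 0.115), 0.32 ± 0.12 in N1d (adjusted p = 0.267) and -0.15 ± 0.12 in N4d (adjusted p = 0.834). DESeq2 called the AP slope of Nfix (adjusted p = 0.00315), and so did edgeR without the E13 sum at 96 h (adjusted p = 0.0316). Within each run code the later day was higher in all 3 classes. In AP, where a code pairs E12 with E14 and E13 with E15, it was 1.92 and 1.84 times as high. In neurons the paired days are closer, E12 with E13 and E14 with E15. There the later day was 1.40 and 1.18 times as high in N1d and 1.52 and 1.21 times as high in N4d cells. With the run code as a block the N4d slope was accordingly 0.46 (edgeR adjusted p = 0.999).

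The fitted day slopes of Nfia had opposite signs in progenitors and neurons, but none passed edgeR's threshold. In AP cells at 1 h it was at 273.4, 332, 461 and 454 CPM, lower at E12 and E13 than at E14 and E15. In N1d cells it was at 997, 972, 609 and 595 CPM and in N4d cells at 289.1, 219.2, 177.01 and 176.5 CPM, higher on the earlier days. The slopes were 0.25 ± 0.08, -0.29 ± 0.08 and -0.26 ± 0.08 (edgeR adjusted p = 0.264, 0.158 and 0.393). The test of a difference between the 3 slopes gave an edgeR adjusted p of 0.132, and DESeq2 gave 0.00181. At 24 h the step in N1d cells lay between the pair E12 and E13 and the pair E14 and E15, which are also the run codes. Within a code the later day had 0.975 and 0.976 times the earlier one, and with the run code as a block the N1d slope was -0.07. The codes pair the same days at 96 h, where the later day had 0.758 and 0.997 times the earlier one in N4d cells. In AP cells, where a code pairs E12 with E14 and E13 with E15, the later day had 1.69 and 1.37 times the earlier one.

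Nfib was at 1129.8, 1306, 1381 and 1809.8 CPM in AP cells at 1 h, with a slope of 0.20 ± 0.11 (edgeR adjusted p = 0.585). Its slopes were -0.03 ± 0.11 in N1d and -0.13 ± 0.10 in N4d cells, and both changed sign with the run code as a block (0.12 and 0.24). Nfic had slopes of 0.16 to 0.40 with SEs of 0.28 to 0.34, and none passed the threshold.

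**Figure D4:**
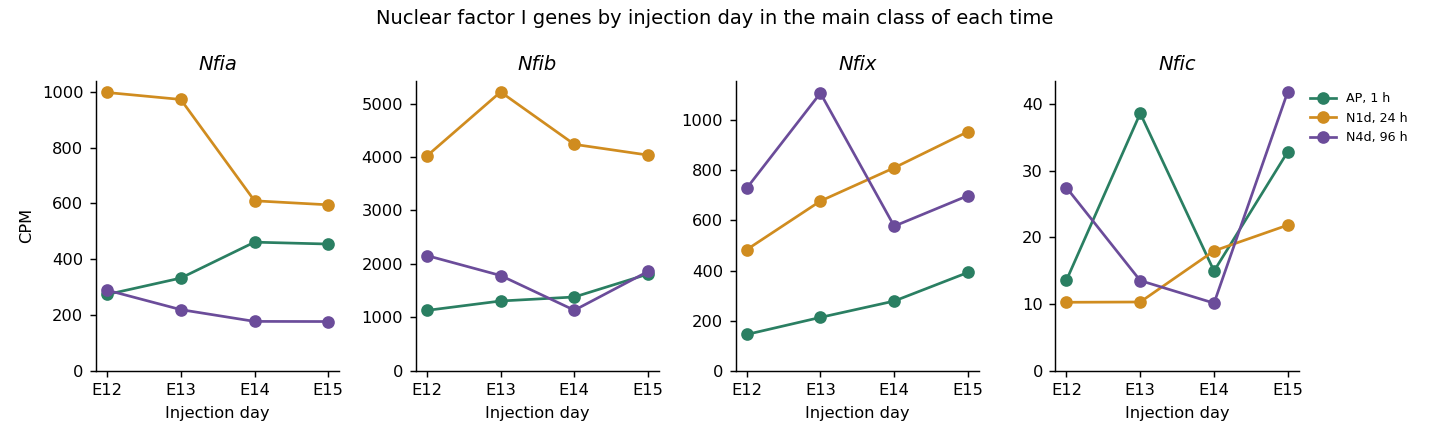
CPM of each Nuclear factor I gene (vertical axis, from 0, its own range for each gene) by injection day (horizontal axis) in the main class of each time, namely AP (1 h), N1d (24 h) and N4d (96 h). Each point is the sum over the cells of 1 group. Nfix is higher on each later day in AP and N1d cells, while Nfia is higher at E14 and E15 in AP cells and lower then in N1d and N4d cells.

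Per kb of exon, the make-up of the family differed between progenitors and older neurons, which is given as a description with no test. In AP cells at 1 h, Nfib gave 52.8 to 61.7% of the family's reads per kb over the 4 days, Nfia 18.9 to 24.2%, Nfix 16.1 to 24.2% and Nfic 1.29 to 3.81%. In N1d cells at 24 h, Nfib gave 58.97 to 65.6%. In N4d cells at 96 h, the Nfia share was 6.70 to 9.69%, below that of every other sum shown, and the Nfix share was 36.2 to 51.6%, above all of them. Nfib was then at 40.8 to 52.6%. Cell by cell, Nfib had the most reads per kb in 521 of 715 AP cells and in 575 of 633 N1d cells. In N4d cells Nfib led in 349 and Nfix in 318 of 693. Using the longest transcript of each gene in place of all its exons, the Nfix share in N4d cells was 40.9% instead of 44.5% over the 4 days together, and that of Nfib 51.9% instead of 46.2%.

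**Figure D5:**
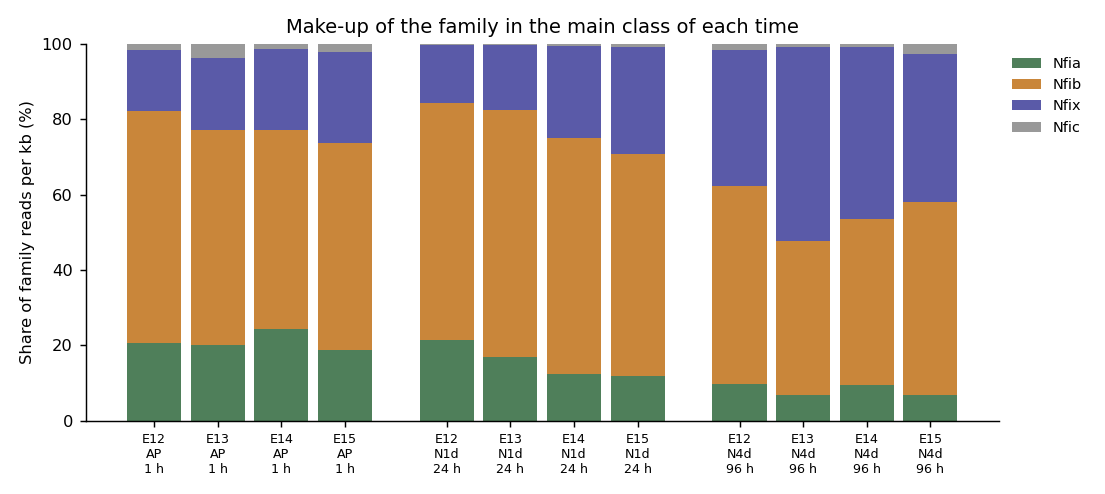
Share of each gene in the family's reads per kb of exon (vertical axis, percent, each bar sums to 100) in the main class of each collection time, 1 bar per injection day. Nfib is the largest part in AP and N1d cells, and in N4d cells Nfix takes 36.2 to 51.6% while Nfia is below 10%.

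Most cells held reads of Nfia, Nfib and Nfix together. Each cell was thinned to 100000 reads, which left out 2 to 34 shallower cells per group, and a gene counted as present with at least 1 read. The 3 genes were present together in 77.97, 73.9, 85.96 and 94.2% of AP cells at 1 h from E12 to E15. Nfix alone was present in 80.8, 78.3, 89.5 and 98.1% of them. Its 95% Clopper-Pearson interval at E15 (95.1 to 99.5%) lay above those of the other days, whose upper bounds reached 94.4%. Such intervals cover counting error only. In N1d cells at 24 h the share was 93.2 to 99.2%, in N4d cells at 96 h 69.2 to 75.4%, and in IN cells at 96 h 51.2 to 72.4%. A single IN cell (0.427% of thinned IN cells), and 0 cells of the other classes, had no read of any of the 3.

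Nfib alone was present in 100% of thinned AP and N1d cells. Nfia was present in 91.8 to 96.5% of AP cells at 1 h and in 69.7 to 76.06% of N4d cells at 96 h. Without thinning the N4d shares were 79.1 to 87.5%. Nfix was present in 97.2 to 99.5% of thinned N4d cells. Nfic was present in 19.2 to 36.1% of AP cells at 1 h, 8.16 to 21.3% of N1d cells and 11.97 to 30.3% of N4d cells.

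Across cells of 1 class and group, the members' levels were only weakly correlated. The 72 correlations of log2(CPM + 1) between pairs of members were taken over the thinned cells. They ran from -0.15 to 0.33 with a median of 0.04. Thinning made the depth of these cells equal, but the members still share dropout, so none of the correlations is a finding. Across the 35 sums of a cluster in a group with at least 20 cells, Pearson's r was 0.59 for Nfia with Nfib, 0.57 for Nfib with Nfix and 0.08 for Nfia with Nfix, and -0.06 to 0.19 for Nfic with the others. These sums share groups and run codes, so the values are descriptions.

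The genes most like each member over the same 35 sums, among 4084 genes with a mean of at least 50 CPM, are given for each in turn. For Nfix they were Zbtb18 (r = 0.84) and Neurod6 (0.81), transcription factors of excitatory neurons, Nrp1 (0.81), a semaphorin receptor, Tsc22d1 (0.79) and Id2 (0.79). For Nfib they included Sort1 (0.75), Ptprs (0.75), Snapc3 (0.75) and Ier5 (0.70). For Nfia they were Ppib (0.73), a chaperone of the endoplasmic reticulum, Sf3b6 (0.71), Scamp2 (0.71), Prkag1 (0.71) and Vangl2 (0.69). For Nfic the highest was Ubl4 (0.62). By Spearman's rho, 4 of the first 5 genes remained among the first 5 for Nfia and Nfix, and 1 for Nfic.

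Genes linked to NFI factors in earlier work were followed as a list of 27, with 5 progenitor genes, 12 glial genes, 4 neuronal genes and 6 upstream factors or partners. From 1 to 24 h, 21 of the 27 could be tested. Against 11.4% higher and 7.76% lower among all genes, 2 of them rose and 4 fell, and their median change was -0.06 beside -0.003 for all genes tested. From 24 to 96 h, 3 rose and 9 fell, beside 11.7% and 12.5% of all genes, with a median of -0.72 beside -0.03.

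Of the progenitor genes, Hes1, a Notch target reported to be repressed by NFI factors, was at 134.96 to 320.4 CPM at 1 h, 42.1 to 102.997 CPM at 24 h and 11.5 to 17.5 CPM at 96 h. The 3 times did not overlap. It fell by 1.51 ± 0.32 from 1 to 24 h and fell by 2.35 ± 0.32 from 24 to 96 h (edgeR adjusted p = 0.00531 and 0.000314). Sox9, which is known to induce Nfia in the spinal cord, was at 157.9 to 264.97 CPM at 1 h, 65.7 to 99.6 CPM at 24 h and 15.6 to 78.3 CPM at 96 h, the last 2 overlapping. It fell by 1.54 ± 0.39 and then fell by 1.15 ± 0.39 (edgeR adjusted p = 0.0144 and 0.0451). Ezh2, the methyltransferase of Polycomb repressive complex 2, was at 273.8 to 448 CPM over the 1 and 24 h sums and at 139.4 to 230.9 CPM at 96 h, and it fell by 0.92 ± 0.19 in the later step (edgeR adjusted p = 0.00394). The 6 apical progenitor markers summed to 1902 to 3775 CPM in the lineage sums at 1 h, 685 to 1846 CPM at 24 h and 223.2 to 531 CPM at 96 h, and their part in these falls was not tested. Within the AP cells of 24 h, Hes1 was at 236.2 to 341 CPM and Sox9 at 230.1 to 346 CPM, beside 162.6 to 329 and 177.2 to 271.2 CPM in the AP cells of 1 h, and neither passed the test between them (edgeR adjusted p = 0.69 and 0.551). All 4 tested progenitor genes fell from 24 to 96 h, beside 12.5% of all genes.

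Of the neuronal genes, Cntn2, an axonal adhesion molecule, was at 3.96 to 30.6 CPM at 1 h and at 171.03 to 502 CPM at 24 h. It rose by 5.29 ± 0.67 (edgeR adjusted p = 0.00019), and Wnt7b, a secreted ligand, rose by 2.78 ± 0.46 (edgeR adjusted p = 0.00117). The 4 young neuron markers summed to 249.6 to 699 CPM in the lineage sums at 1 h. At 24 h they summed to 3416 to 4928 CPM, and their part in these rises was not tested. From 24 to 96 h, 1 of the 4 neuronal genes rose and 1 fell, beside 11.7% and 12.5% of all genes. Of the upstream factors and partners, the receptor Notch1 fell by 1.78 ± 0.31 from 1 to 24 h, and it fell by 1.49 ± 0.31 from 24 to 96 h (edgeR adjusted p = 0.00149 and 0.00409). Within AP cells Notch1 was at 101.2 to 211.95 CPM at 1 h and 113.1 to 214.5 CPM at 24 h (edgeR adjusted p = 0.974). Zbtb20 and Pou3f2 rose from 24 to 96 h, by 1.21 and 1.36 (edgeR adjusted p = 0.0188 and 0.0228).

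Of the linked glial genes, Fabp7 and Mmd2 rose with injection day in AP cells, and Fabp7 also in N1d and N4d cells. In AP cells at 1 h, 20 of the 27 genes were tested and 6 rose with day, beside 0.785% of all genes. These shares are not compared, since the filter was on all 12 class sums and let in genes near 0 in AP cells. Tnc, Sparcl1 and Cntn2 were at 0 to 4.67 CPM in the AP sums of E12 to E14. Sparcl1 passed the filter through N4d cells (36.6 to 157.6 CPM), and Cntn2 through N1d and N4d cells (293.5 to 687 CPM). Of the 12 glial genes 6 were tested, and 4 of these rose, Tnc and Sparcl1 included. The other 2 were Slc1a3, a glutamate transporter, with a slope of 0.92 ± 0.25 (edgeR adjusted p = 0.153), and Gja1, a gap junction protein, with a slope of -0.31 ± 0.62 (edgeR adjusted p = 0.957). Fabp7, the radial glial fatty acid binding protein, was at 256.5 CPM at E12, 668 at E13, 1107 at E14 and 2098 at E15. Its slope was 0.96 ± 0.11 per day (edgeR adjusted p = 0.00226). In the same cells the Nfix slope was 0.45 ± 0.12 and the Nfia slope 0.25 ± 0.08, neither past the threshold. In N1d cells 3 of the 20 rose with day, beside 0.206% of all genes, namely Fabp7 (0.60 ± 0.10, edgeR adjusted p = 0.0431), Zbtb20 (1.01 ± 0.15, adjusted p = 0.0359) and Pou3f2 (1.23 ± 0.20, adjusted p = 0.0431). In N4d cells Fabp7 alone rose (1.11 ± 0.10, edgeR adjusted p = 0.0029) and 0 fell, beside 0.0294% and 0.0196% of all genes.

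Mmd2, reported as a target of Nfia with Sox9, was at 48.97, 75.2, 169.6 and 221.5 CPM in AP cells, with a slope of 0.76 ± 0.13 (edgeR adjusted p = 0.0202). Tnc and Sparcl1 also passed the threshold, Tnc after entering the test only through late sums. Tnc was at 0, 0.0872, 4.67 and 70.998 CPM and Sparcl1 at 0, 0.0145, 0 and 26.9 CPM from E12 to E15, so no fold is given. The other 2 of the 6 were Cntn2, at 1.24 to 5.37 CPM, and Zbtb20, with a slope of 1.31 ± 0.17 (edgeR adjusted p = 0.00399). Gfap, the classical astrocyte target of NFI factors, was at 0 to 0.499 CPM in the lineage sums and was not tested, and the same holds for Aqp4, which had at most 6.79 CPM.

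Windows of 250 bases before a start were at hand for 19 of the 27 linked genes, and 11 of their 23 windows held the half-site (47.8%, beside 41.5% of all windows). None held the full palindrome. The windows of Fabp7 (chr10:57784673-57784922, plus strand) and Cntn2 (chr1:132542941-132543190, minus strand) are shown because Fabp7 had the smallest p of the linked genes in the AP day trend and Cntn2 the smallest from 1 to 24 h, with half-sites in capitals. In Fabp7 the half-site lies 55 to 51 bases before the start, and in Cntn2 there are 2, the nearer one 23 to 19 bases before the start on the gene's own strand and the farther one on the opposite strand.
Fabp7: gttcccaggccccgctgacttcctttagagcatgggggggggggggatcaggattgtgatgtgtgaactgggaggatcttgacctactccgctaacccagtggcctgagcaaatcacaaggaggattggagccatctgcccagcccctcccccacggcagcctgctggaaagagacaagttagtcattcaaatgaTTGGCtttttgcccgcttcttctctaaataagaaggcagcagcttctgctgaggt
Cntn2: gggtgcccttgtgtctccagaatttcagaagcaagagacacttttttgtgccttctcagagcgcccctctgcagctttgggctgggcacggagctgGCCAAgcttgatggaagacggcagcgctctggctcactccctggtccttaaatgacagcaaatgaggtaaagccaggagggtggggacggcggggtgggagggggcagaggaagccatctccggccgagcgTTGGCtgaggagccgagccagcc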

How the data were processed

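Per the labels' protocols, cells were captured on C1 circuits, cDNA was made with SMARTseq v4, and Nextera XT libraries were sequenced as paired reads. The submitters' processing notes name GRCm38, TopHat2 2.0.13 and UMI-tools, without their roles. The deposited table holds unnormalised whole counts per gene and cell, made by the authors. Column totals were 0.987 to 1 times the read number in the labels, so the counts were taken as reads. The counter, annotation and filters are not given in the sources used here.

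Counts were summed per group and class and scaled to CPM. Fits used edgeR 4.0.16 (TMM, quasi-likelihood test, Benjamini-Hochberg adjustment, R 4.3.3) on genes with at least 10 CPM in at least 3 sums. The time fit had collection time and centred injection day as terms (8 residual degrees of freedom), the day fit 1 line per class (6), and the progenitor fit time and day (5). The scripts were tested on simulated data. Alternatives were DESeq2 1.42.0, its size factors, no filter, thinned cells, main classes only, run codes as samples or block, an injection-day block, leaving out AP.late cells or each sum.

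The members, lists and tests were chosen with earlier results of these data known, and the 96 h against 1 h contrast after their values were seen. Named genes were the members, up to 4 linked genes past the threshold per list and fit by smallest p, and the 5 genes most correlated with each member, of which 1 is not reported here. Gfap, Aqp4, Slc1a3, Gja1 and the windows shown were named outside this rule.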

Additional observations from a re-analysis of the deposited data

Results flagged for a closer look

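In groups of 4 injection days, a value was picked out where its gap to the nearest other, divided by the range of the group, exceeded Dixon's critical value of 0.829. Of 48 such groups, 2 had one, and chance gives about 1 in 20. Both were in IN.1 interneurons at 96 h. Nfia was at 208.6 CPM in the 61 cells of E12, against 88.4 to 99.5 CPM on the other days. Nfic was at 35.4 CPM in the 29 cells of E13, against 0.52 to 2.18 CPM on the other days.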

How the results depend on the processing

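The steps of Nfib and Nfix from 1 to 24 h and of Nfia and Nfib from 24 to 96 h kept their direction and passed in all alternatives run. The Nfia rise to 24 h (0.85) and its 96 h against 1 h change (-0.66) no longer passed with run codes as samples. Nfib at 96 h against 1 h ran from 0.20 to 0.51 when each sum was left out, passing without E14 at 96 h, and Nfic from -0.42 to 0.34. From 1 to 24 h, where 19.2% of genes passed, 31.9% did with main classes only and 10.4% with run codes as samples, which gave 12.7% from 24 to 96 h beside 24.2%. Injection day joins the groups of different times, and with that number as a replicate block 16.6% and 21.2% passed in these steps, while Nfia rose by 0.81 and changed by -1.52 and no call of a member changed. Embryos of 1 injection day are not stated to be shared between times.

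The day trends depended on the tool. In the order AP, N1d, N4d, shared slope and difference between slopes, edgeR passed 1.03, 0.383, 0.049, 1.01 and 0.226% of genes, and DESeq2 3.36, 3.79, 1.63, 5.73 and 2.81%. With no filter and all genes in the denominator it was 0.292, 0, 0.0122, 0.268 and 0.0547%, and with the run code as a block 0.324, 0, 0.00981, 0 and 0.00981%. Leaving out each sum gave 0.576 to 1.25% in AP (lowest without E12 at 1 h), 0 to 0.537% in N1d (lowest without E15 at 96 h), 0.0299 to 0.099% in N4d, 0.188 to 1.43% for the shared slope (lowest without E15 at 24 h) and 0.139 to 0.318% for a difference. The run code block gave slopes of -0.045 for Nfic in AP, 0.12 for Nfib in N1d, 0.24 for Nfib and 0.46 for Nfix in N4d, and 0.0073 for Nfia in the shared slope. With thinned cells the shared slope of Nfib was -0.0054. With a sum left out, Nfic ran from -0.14 to 0.37 in AP, from -0.74 to 0.77 in N4d and from -0.044 to 0.46 in the shared slope, and Nfib from -0.18 to 0.053 in N1d and from -0.11 to 0.051 in the shared slope. DESeq2 also called the Nfia slope in N1d cells (adjusted p = 0.0416), the shared slope of Nfix (0.0242) and the difference between its slopes (0.0278).

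Between AP cells of 24 and 1 h, edgeR passed 0.0107% of genes and DESeq2 2.15% at the same day and 2.96% at the same age. None passed (0%) without a filter, without AP.late cells, without any 1 of the sums or, at the same day, with a replicate block. There Nfic was at -0.049 without a filter and from -0.47 to 0.43 with a sum left out. At the same age Nfix was at 0.0065 with DESeq2 and with its size factors, 0.023 with thinned cells, 0.086 without AP.late cells and -0.44 to 0.30 with a sum left out, and Nfic was at 0.011 without AP.late cells and -0.79 to 0.22. The causes of these shifts were not tested. For Nfic, the counting intervals of the lineage sums were narrower than the spread between sums of a time. A minimum of 10 reads lowered the mean share of N4d cells with Nfia to 53.9%.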
